A study of Mus musculus with 22 samples.

Results

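Ribosome-bound RNA was set against total RNA in the prefrontal cortex (PFC) of mice that received ethanol and the PARP inhibitor ABT-888. The comparison holds 8 of the 22 libraries of the series, chosen by their labels: the 4 pull-down libraries of the EtOH + ABT-888 treatment (EtOH + ABT-888_TRAP) and the 4 input libraries of the same treatment (EtOH + ABT-888_total-RNA), paired by animal id (animals 3, 6, 10 and 11). All 11 mice of the series were male, 8 to 12 weeks old and of C57BL/6J background, and carried the CaMKIIα-tTA and tetO-EGFP/Rpl10a transgenes together. Injections were intraperitoneal and came in pairs, 2 hours apart, on each of 4 days. Ethanol reached 2 g/kg per day, ABT-888 was added at 25 mg/kg on day 4 alone, and the tissue was taken 2 hours after the last injection. The other mice, used here only to see whether the contrast was particular to this treatment, received saline (Control, 3 animals, 6 libraries) or ethanol without the inhibitor (EtOH, 4 animals, 8 libraries). No group received ABT-888 without ethanol, so the inhibitor and the ethanol that preceded it cannot be told apart within these 8 libraries.

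In translating ribosome affinity purification (TRAP), a ribosomal protein of the large subunit, Rpl10a, carries EGFP, and an antibody against EGFP pulls down tagged ribosomes with the RNA they hold. The tag is made only where the transactivator tTA is present, here under a promoter of CaMKIIα, a kinase of forebrain neurons that is abundant in excitatory cells of the cortex but is also found in other forebrain neurons. RNA that is scarce in tagged cells, or that is not held by cytosolic ribosomes, is therefore less abundant in the pull-down than in the lysate, and RNA that is abundant in tagged cells and well loaded with ribosomes is more abundant. A difference between TRAP and total-RNA cannot tell which of these applies, and fewer tagged cells of a type cannot be told apart from less RNA per cell.

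The input was 40 µL of each lysate, and the pull-down was made from the rest, about 400 µL. Both were depleted of ribosomal RNA before sequencing. The 4 TRAP libraries held between 6570957 and 21080724 counted reads and the 4 total-RNA libraries between 24556172 and 32421392. The TRAP library of animal 6 was the smallest, and Gm42418, a noncoding gene that overlaps an annotated rRNA gene on the opposite strand of chromosome 17, took 2.17% of its counts against 0.0956% to 0.0969% in the other 3 TRAP libraries. Across genes, which are not independent replicates, Pearson's r of log2 CPM lay between 0.92 and 0.953 for the 6 pairs of TRAP libraries, between 0.959 and 0.988 for the 6 pairs of total-RNA libraries, and between 0.842 and 0.902 for the 16 pairs of 1 TRAP and 1 total-RNA library. CPM are counts scaled to a common library size with edgeR's TMM factors. Values of single libraries are given in the order animals 3, 6, 10 and 11.

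A total of 14072 genes were tested with edgeR's quasi-likelihood test, with the animal as a block and Benjamini-Hochberg adjustment. At an adjusted p-value under 0.05, 7642 genes (54.3%) differed between TRAP and total-RNA. Of all genes tested, 3714 (26.4%) were higher in TRAP and 3928 (27.9%) were lower. Changes of at least 2-fold were less balanced, with 1124 called genes higher (7.99%) and 2593 lower (18.4%). Called genes had a median log2 fold change of 0.97 in absolute size. In 5685 genes (40.4%) the 4 TRAP values and the 4 total-RNA values did not overlap, and in 8997 (63.9%) the ratio had the same sign in all 4 animals. The log2 ratios of TRAP to total-RNA of 2 animals correlated across the 14072 genes with r between 0.711 (animals 3 and 6) and 0.85 (animals 10 and 11). Without the animal in the fit, 5769 genes (41%) were called, 2744 higher (19.5%) and 3025 lower (21.5%).

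The genes were read through 25 lists of cell type markers, organelles and pathways, which name 647 different genes, 601 of them with enough counts to be tested. The plot of list members shows the direction of each list. Since 54.3% of all genes were called, a list in which about 26.4% of the members were higher and 27.9% lower did not stand apart.

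**Figure D1:**
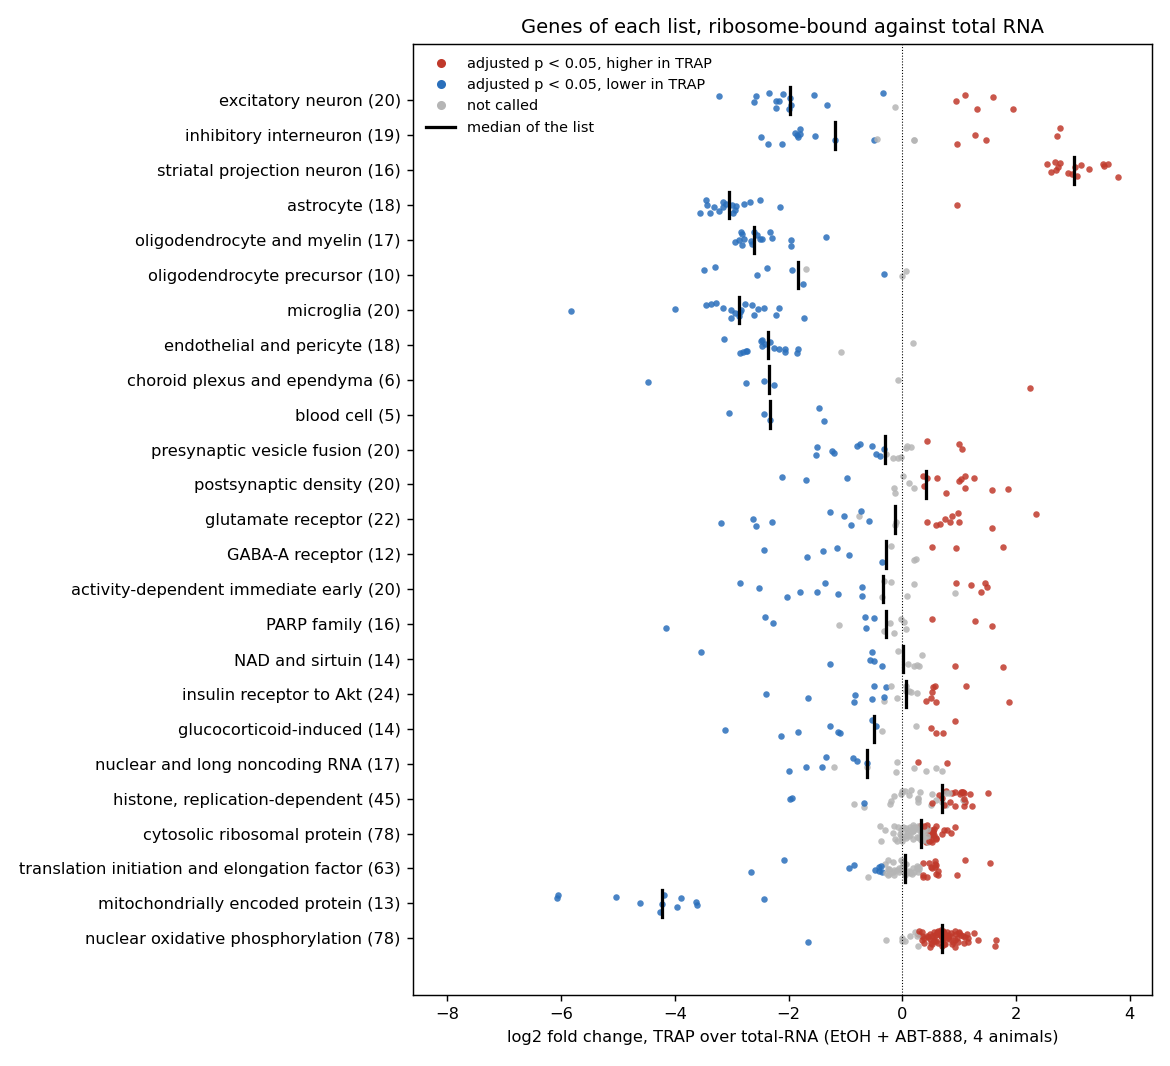
Each point is a gene, placed by its log2 fold change of TRAP over total-RNA in EtOH + ABT-888 (horizontal axis, 4 animals), with the number of genes tested in brackets after the list name; red and blue points passed an adjusted p-value of 0.05, grey points did not, and black bars are list medians. The 16 striatal projection neuron genes lie between 2.54 and 3.79, while the glial, vascular and mitochondrially encoded lists lie almost wholly below 0; mt-Atp8, at 0 in every TRAP library, is left out.

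Camk2a, whose promoter drives the transactivator, was at 1990, 1960, 2970 and 2300 CPM in TRAP and at 2320, 2660, 2620 and 2350 CPM in total-RNA. The groups overlapped, and the log2 fold change of −0.13 ± 0.12 (SE, n = 4 animals) was not called (edgeR adjusted p = 0.4). Rpl10a, the protein that carries the tag, was higher in TRAP in each animal, with 68.2, 66.1, 100 and 78.5 CPM against 45.6, 46.1, 60.2 and 53.7 CPM. Its log2 fold change was 0.6 ± 0.11 (edgeR adjusted p = 0.000752), and since the transgene holds the same coding sequence, reads of the gene and of the transgene cannot be told apart. S100b, a calcium-binding protein of astrocytes, was at 15.8, 7.25, 8.6 and 22.1 CPM in TRAP and at 73.4, 64.8, 91.8 and 95 CPM in total-RNA. Every TRAP value lay below every total-RNA value, and the gene fell by 2.68 on the log2 scale (SE 0.22, edgeR adjusted p = 2.74e-06).

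Among the largest rises were those of genes of striatal projection neurons, the GABAergic output neurons that respond to dopamine. All 16 members of this list were higher in TRAP, with a list median of 3.02 and a range from 2.54 to 3.79. In each member the 4 TRAP libraries lay above the 4 total-RNA libraries, as they did in 18.9% of all genes tested. Adora2a, an adenosine receptor of neurons of the indirect pathway (chromosome 10, 75316877 to 75334784, mm10), was at 719, 639, 758 and 813 CPM in TRAP and at 71, 39.9, 50.4 and 53.8 CPM in total-RNA. Its log2 fold change was 3.79 ± 0.14 (edgeR adjusted p = 3.66e-08), a 13.8-fold difference. Penk, the precursor of the enkephalins (chromosome 4, 4133531 to 4138819), was at 2650, 2760, 4910 and 3130 CPM against 319, 198, 367 and 264 CPM. It overlaps A830012C17Rik on the opposite strand. How the counting treated strand is not given in the sources used here, so for genes with such a partner, S100b, Ppp1r1b, Syndig1l and Slc32a1 among them, the reads of both cannot be told apart. Syndig1l, a relative of a synapse differentiation protein, rose by 3.61 ± 0.14 on the log2 scale.

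Markers of both striatal output pathways rose. Drd2, the dopamine receptor of the indirect pathway, was at 457, 409, 395 and 595 CPM in TRAP and at 53.7, 37, 29.8 and 41.3 CPM in total-RNA, and Drd1, that of the direct pathway, was at 444, 459, 458 and 471 CPM against 81, 63.4, 60.7 and 80.6 CPM. Their log2 fold changes were 3.53 ± 0.14 and 2.69 ± 0.12. Ppp1r1b (DARPP-32), a phosphatase inhibitor that acts downstream of dopamine receptors in both pathways, was at 2700, 2500, 3690 and 2980 CPM against 339, 284, 426 and 354 CPM. The summed level of the 16 genes was between 17700 and 21300 CPM in the TRAP libraries and between 1960 and 2910 CPM in the total-RNA libraries.

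Markers of cortical excitatory neurons went mostly the other way. Of the 20 members tested, 14 were lower in TRAP, 5 were higher and Camk2a was not called, and the list median was −1.97. Neurod6, a transcription factor of cortical pyramidal neurons (chromosome 6, 55677822 to 55681263), was at 10.4, 4.53, 4.25 and 6.58 CPM in TRAP and at 71.4, 48.6, 55.5 and 54.7 CPM in total-RNA. It fell by 3.22 on the log2 scale (SE 0.18, edgeR adjusted p = 2.36e-07). Rorb, a nuclear receptor of layer 4, and Fezf2, which specifies deep-layer projection neurons, had log2 fold changes of −2.61 ± 0.15 and −2.57 ± 0.19. Slc17a7, which loads cortical glutamate into vesicles, was at 310, 165, 181 and 197 CPM in TRAP and at 973, 1050, 800 and 747 CPM in total-RNA, a log2 fold change of −2.09 ± 0.15. For each of these 4 genes the TRAP libraries lay wholly below the total-RNA libraries.

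The 5 members that rose were Bcl11b (1.94 ± 0.11), Foxp2 (1.6 ± 0.13), Baiap2 (1.32 ± 0.1), Nrgn and Tle4. Bcl11b and Foxp2 are transcription factors of deep cortical layers that are also strongly expressed in the striatum, and Baiap2 and Nrgn are postsynaptic proteins found in both. Tle4 is a co-repressor of deep cortical layers. The TRAP libraries were labelled as excitatory neurons of the cortex. With 14 of the 20 markers of such neurons lower in TRAP than in the lysate, 5 higher and Camk2a not called, and with 16 of 16 striatal genes higher, most of these markers went against the label. Whether the dissected tissue or the cells that express the transgene differ from the label was not tested.

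**Figure D2:**
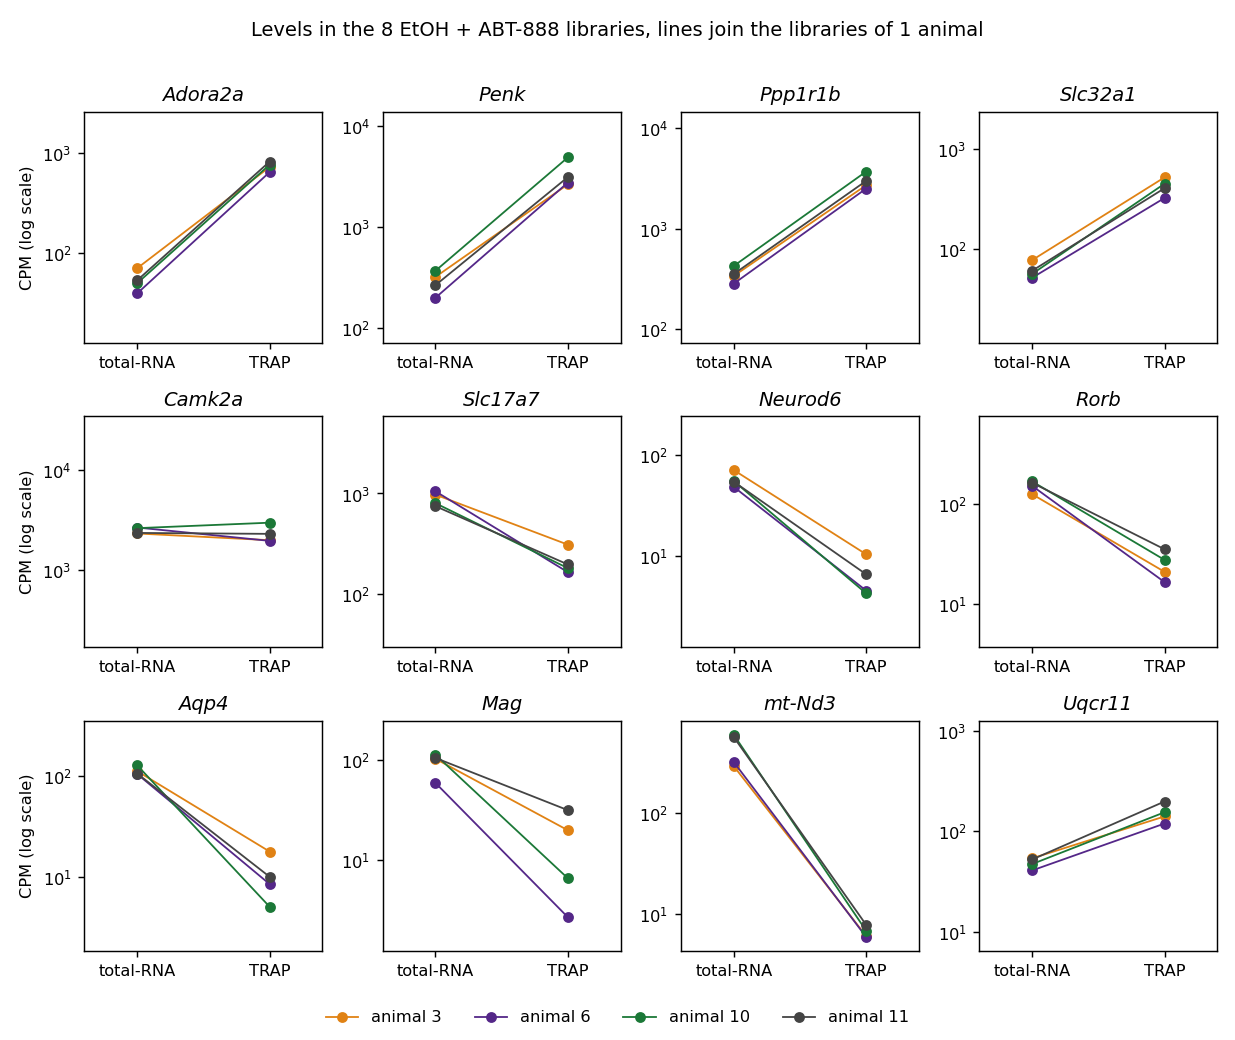
Levels of 12 genes in CPM (vertical axis, log scale; every panel spans the same fold range) in the total-RNA and the TRAP library of each of the 4 EtOH + ABT-888 animals, with 1 line per animal. Adora2a, Penk, Ppp1r1b, Slc32a1 and Uqcr11 rise in all 4 animals, Camk2a has no common direction, and Slc17a7, Neurod6, Rorb, Aqp4, Mag and mt-Nd3 fall in all 4.

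Genes of inhibitory interneurons went both ways. Of 19 tested, 5 were higher (26.3%, against 26.4% of all genes) and 11 lower (57.9%, against 27.9%), with a median of −1.19. The 5 that rose include the shared GABA machinery: Slc32a1, the vesicular GABA transporter (2.77 ± 0.11), and the GABA-synthesizing enzymes Gad2 (1.28 ± 0.12) and Gad1 (0.96 ± 0.11), together with Dlx6 (2.72 ± 0.15) and the secreted protein Reln (1.47 ± 0.11). The 11 that fell include the peptides and regulators Vip (−2.49 ± 0.3), Sox6 (−2.36 ± 0.17), Npy (−2.11 ± 0.14) and the calcium-binding protein Pvalb (−1.83 ± 0.2). Lamp5 and Dlx2 were among those not called, with log2 fold changes of 0.21 and 0.2. Slc32a1 was at 518, 323, 448 and 404 CPM in TRAP against 78, 52.1, 56.9 and 61.2 CPM in total-RNA, and Vip at 8.74, 20.7, 7.27 and 6.96 CPM against 43.8, 45.6, 68 and 64.4 CPM. Dlx6 overlaps noncoding genes on the opposite strand.

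Further protein-coding genes with the smallest p-values and no overlap between the groups are named next. Rasd2 is a member of the striatal list and Enpp2 of the oligodendrocyte list. Tmem158 (3.48 ± 0.11), Rasd2 (3.29 ± 0.12), a small GTPase enriched in the striatum, and the acid-sensing ion channel subunit Asic4 (3.22 ± 0.11) were higher in TRAP. The largest rises with a mean of at least 5 CPM in the higher group also include Tmem200b, at 20, 14.9, 13.1 and 12.2 CPM against 1.39, 0.799, 1.13 and 0.75 CPM, Sbsn, and the homeobox gene Six3 (3.61 ± 0.19), which overlaps 2 noncoding genes on the other strand. In the other direction stood Cadps2 (−2.65 ± 0.11), which acts in dense-core vesicle release, the kinase-anchoring protein Sphkap (−2.74 ± 0.13), Enpp2 (−2.67 ± 0.13), which makes lysophosphatidic acid, Kcnc2 (−2.48 ± 0.12), a potassium channel of fast-spiking neurons, and Efr3a (−2.45 ± 0.12). Low in every TRAP library were Lrrc17, at 0.0825, 0, 0.106 and 0.188 CPM against 5.74, 3.16, 8.11 and 6.87 CPM, Atp13a4, and the interferon-induced gene Ifit3, at 0, 0, 0.425 and 0.313 CPM against 6.73, 6.43, 6.31 and 5.31 CPM.

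Markers of glia, vessels and blood were lower in TRAP. Over 7 lists of astrocytes, oligodendrocytes, their precursors, microglia, vessels, choroid plexus and blood, 86 of 94 genes tested were lower in TRAP, 2 were higher and 6 were not called. The astrocyte median was −3.05, with 17 of 18 lower. Aqp4, the water channel of astrocyte endfeet, was at 17.8, 8.46, 5.04 and 10 CPM in TRAP and at 112, 105, 128 and 106 CPM in total-RNA (−3.56 ± 0.26). The glutamate transporter Slc1a3 and the lipid enzyme Acsbg1 fell by 3.46 and 3.43 on the log2 scale. Slc4a4, a bicarbonate transporter, was the exception among the astrocyte genes, at 471, 593, 472 and 531 CPM in TRAP and at 249, 223, 262 and 328 CPM in total-RNA (0.97 ± 0.12).

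All 17 oligodendrocyte genes tested were lower, with a median of −2.61. Mag, an adhesion protein of myelin, was at 19.9, 2.72, 6.63 and 31.5 CPM in TRAP and at 102, 58.7, 112 and 104 CPM in total-RNA. The TRAP libraries of animals 3 and 11 held several times as much Mag as that of animal 6, and all 4 lay below the total-RNA libraries. Mag and Aspa, an enzyme of myelinating cells, had log2 fold changes of −2.95 ± 0.36 and −2.88 ± 0.59. Of the 10 precursor genes, 7 were lower, led by Tmem100, Pdgfra (−3.29 ± 0.2) and Gpr17, and Olig2 and Lhfpl3 had log2 fold changes of 0.06 and 0.

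All 20 microglial genes were lower, with a median of −2.87. In 14 of them the TRAP libraries lay wholly below the total-RNA libraries, as they did in 21.5% of all genes tested. Itgam, an integrin of myeloid cells, was at 0, 0.302, 0 and 0 CPM in TRAP and at 4.83, 2.93, 1.03 and 2.58 CPM in total-RNA, so its fitted value of −5.82 ± 0.89 rests on few reads. P2ry13 (−4 ± 0.56) and Siglech (−3.46 ± 0.65) followed. In vessels 16 of 18 genes were lower (median −2.37), with Pecam1, Abcb1a and Ly6c1 at the low end, and Esam and Emcn were not called. Of the blood genes, all 5 fell; Hbb-bs, a β-globin, was at 6.19, 6.64, 6.69 and 7.02 CPM in TRAP and at 27.7, 25.8, 45.6 and 47.5 CPM in total-RNA, and its reads may be shared with its near-identical neighbour Hbb-bt. Of the choroid plexus genes 4 of the 6 tested were lower. Clic6 of the same list was higher in TRAP in all 4 animals (2.25 ± 0.21), and Ttr, which varied between 1.03 and 30.5 CPM in total-RNA, was lower in each animal but was not called without the animal block (edgeR adjusted p = 0.0856).

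The size of the difference varied between animals. The astrocyte medians of the log2 ratio were −2.23, −3.68, −3.76 and −2.62 in animals 3, 6, 10 and 11, and those of microglia were −2.26, −2.66, −3.69 and −2.66. In 15 of the 25 lists, animal 3 had the median nearest to 0. The mitochondrially encoded share of TRAP counts moved with it, being 0.62% in animal 3 and 0.273%, 0.234% and 0.46% in animals 6, 10 and 11. The part of this in the results was not tested, and counts that moved when 1 animal was left out are given beside them.

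The respiratory chain is built from 2 genomes, and its subunits differed in direction by genome. Transcripts of the mitochondrial genome are read by ribosomes inside the organelle, which carry no Rpl10a, while those of nuclear genes are read in the cytosol. All 13 mitochondrially encoded protein genes were lower in TRAP, and their median was −4.22. Of 78 nuclear genes of oxidative phosphorylation tested, 69 were higher (88.5%, against 26.4% of all genes), 1 was lower and 8 were not called, with a median of 0.69. mt-Nd3, a subunit of complex I (positions 9459 to 9806 of chromosome M), was at 6.02, 5.89, 6.79 and 7.77 CPM in TRAP and at 293, 322, 600 and 570 CPM in total-RNA. Its 4 TRAP values lay close together, and the log2 fold change was −6.05 ± 0.17 (edgeR adjusted p = 1.09e-08).

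The more abundant mt-Co1 was at 2060, 1060, 844 and 1320 CPM against 12900, 13200, 20300 and 16300 CPM, a log2 fold change of −3.62 ± 0.26. mt-Nd6, which lies on the other strand from the rest and overlaps mt-Nd5, was the least depleted, at −2.44 ± 0.19. mt-Atp6 and mt-Co2 were at or under 0.439 CPM in every TRAP library. mt-Atp8 had 0 counts in the 4 TRAP libraries and 178 in the 4 total-RNA libraries, so it was at least 28.4-fold lower when set against a floor of 3 counts over the TRAP group, and this floor covers counting error only. Near-identical nuclear copies of the mitochondrial genome are annotated as pseudogenes; 10 of them on chromosomes 1 and 2, such as Gm10925 (9.08 against 127 CPM, −3.82) and Gm28437 (−4), fell with it, and how reads that match both places were counted is not given in the sources used here.

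Nuclear subunits of each complex were higher. In complex I, 34 of 36 rose, with a median of 0.68. The counts were 2 of 4 in complex II, 6 of 9 in complex III, 11 of 12 in complex IV and 16 of 17 in the ATP synthase. Uqcr11 of complex III was at 140, 119, 154 and 197 CPM in TRAP and at 53.7, 40.7, 47.1 and 52.3 CPM in total-RNA (1.64 ± 0.12), Ndufa1 of complex I rose by 1.63 ± 0.11 and Cox6a1 of complex IV by 1.34 ± 0.12. Its relative Cox6a2, the isoform of striated muscle, was the 1 member that was lower, at 1.15, 0, 2.23 and 2.19 CPM against 4.08, 2.36, 4.97 and 4.32 CPM, a difference that was not called without the animal block (edgeR adjusted p = 0.0888).

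**Figure D3:**
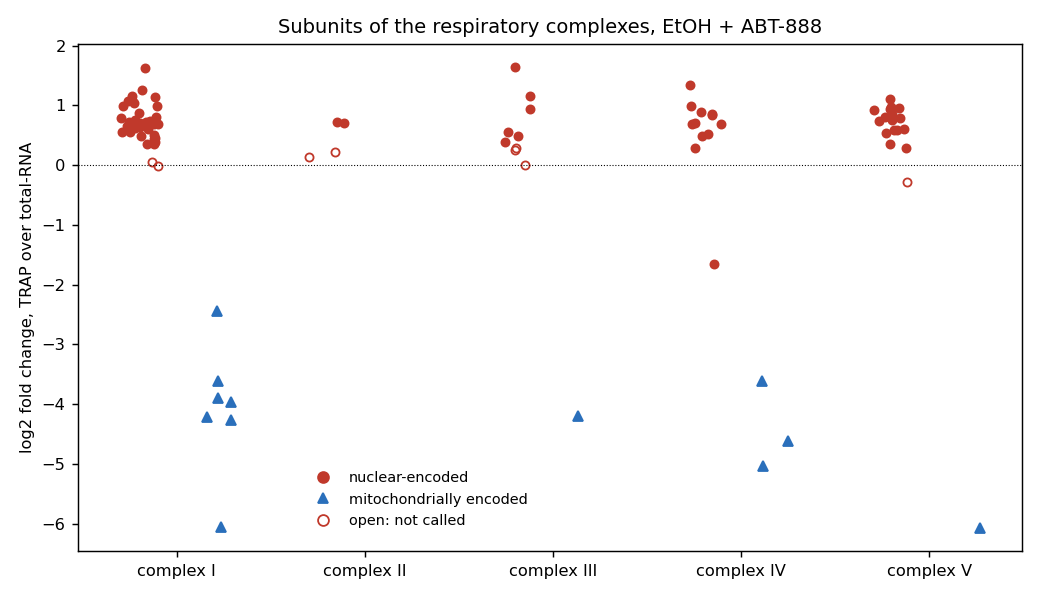
Each symbol is a subunit gene of the respiratory complexes (horizontal axis), placed by its log2 fold change of TRAP over total-RNA in the 4 EtOH + ABT-888 animals (vertical axis); circles are nuclear genes, triangles genes of the mitochondrial genome, and open circles were not called. Every mitochondrially encoded gene lies at −2.44 or below and nuclear genes lie between −0.28 and 1.64 except Cox6a2 at −1.65; mt-Atp8, at 0 in every TRAP library, is left out.

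Transcripts of the translation machinery moved less. Of 78 cytosolic ribosomal protein genes, 29 were higher in TRAP (37.2%, against 26.4% of all genes) and 0 were lower, with a median of 0.33. Rpl41 was at 217, 287, 468 and 472 CPM in TRAP and at 165, 156, 208 and 201 CPM in total-RNA (0.92 ± 0.14), Rplp2 rose by 0.85 ± 0.16 and Rps9 by 0.78 ± 0.13. The large subunit had 18 of 47 members higher and the small subunit 11 of 31. The animals did not move together. In animal 3, 60 of the 78 genes were lower in TRAP than in total-RNA, while in animals 6, 10 and 11 these were 8, 1 and 7 genes. A total of 48 genes were below total-RNA in animal 3 and above it in the other 3 animals. Leaving out animal 3 raised the count of higher genes to 55, leaving out animal 10 or animal 11 lowered it to 11, and 11 were called without the animal block. The count of higher genes was 14 with edgeR's exact test without the block and 14 at a threshold of 0.01. The count of lower genes was 1 without animal 6, with DESeq2 or with a single fit over all libraries, 2 without animal 10 and 3 without a filter on low counts. Many ribosomal protein genes have processed pseudogenes with which they may share reads.

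Of 63 translation initiation and elongation factors, 17 were higher (27%) and 9 lower (14.3%), with a median of 0.04. Over all genes the shares were 26.4% and 27.9%. Eif1, which scans for the start codon, was at 338, 321, 507 and 368 CPM in TRAP and at 114, 135, 164 and 113 CPM in total-RNA (1.54 ± 0.11). Eef1akmt1, a methyltransferase of the elongation factor, and Eif5a also rose, by 1.1 ± 0.21 and 0.96 ± 0.11. The members that fell most were Eif2ak2, the interferon-induced kinase PKR (−2.67 ± 0.36), Eif4ebp1 (−2.08 ± 0.54), which holds the cap-binding protein back, and Eif4e3. Without the animal block 9 factors were higher and 5 lower, and without animal 11 the count of higher factors was 11.

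Replication-dependent histone genes are read into messages that end in a short stem-loop in place of a poly(A) tail. The histone 3′ stem-loop was searched as its 16-letter consensus, with 3 letters left free, in the sense strand of 1 transcript per gene, that with the longest coding sequence. It was found in 29 of the 14051 transcripts searched (0.206%), of which 28 were among the 45 histone genes tested (62.2% of these) and 1 was of another gene. The 3 histone genes that rose most, 1 abundant H4 gene and the linker histone gene that fell are shown with this element in capitals and with 6 bases before it and after it, 5′ to 3′ in the sense strand, as GENCODE M21 gives the transcripts on mm10.
Hist1h3e: caaaacGGCTCTTTTAAGAGCCacctcc
Hist1h2ac: cccaaaGGCTCTTTTCAGAGCCcccact
Hist4h4: cacaaaGGCCCTTTTCAGGGCCcacaaa
Hist1h4c: acaaaaGGCCCTTTTCAGGGCCacccac
Hist1h1e: cccaaaGGCTCTTTTCAGAGCCacccac
The element of Hist1h1e has the same 16 letters as that of Hist1h2ac, although the genes moved in opposite directions.

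Of the 45 histone genes tested, out of 65 listed, 20 were higher in TRAP (44.4%), 3 were lower and 22 were not called, and the median was 0.7. Hist1h3e was at 39.1, 28.1, 66.3 and 64.2 CPM in TRAP and at 12.7, 21.6, 19.3 and 14.3 CPM in total-RNA (1.51 ± 0.24). Hist1h4c was at 92.2, 81.4, 105 and 129 CPM against 39.6, 59.5, 46.4 and 47.1 CPM (1.08 ± 0.15). Among the classes, 9 of 13 H4 genes rose, with a median of 0.87, whereas 1 of 11 H2B genes rose and 2 fell, with a median of −0.14. Hist1h1e was at 43.4, 45, 33.3 and 36.5 CPM in TRAP and at 52.7, 73, 79.1 and 51.8 CPM in total-RNA (−0.68 ± 0.16). The list medians of the log2 ratio were 0.89, −0.1, 0.51 and 1.06 in the 4 animals.
The 28 genes with the element held 16 that rose and 1 that fell, with a median of 0.79. The 17 in which it was not found held 4 that rose and 2 that fell, with a median of 0.28. The difference between them was not tested, and the 2 sets differ in histone class. A transcript annotated without a 3′ UTR could not show the element. Hist1h2bn, 1 of the 17, is annotated with 381 exonic bases, and how many of the 17 lack a 3′ UTR was not tested. Without the animal block 15 genes were higher and 1 was lower, and without animal 11 the count of higher genes was 12. Histone genes of a class are near-identical, and the authors' counting could split their reads.

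Noncoding RNA was not uniformly depleted. Of 413 long noncoding genes tested, 82 were higher in TRAP (19.9%) and 74 lower (17.9%), with a median of −0.05. Of 17 noncoding RNAs in the list, 7 were lower and 2 higher, and without the animal block 5 were lower and 0 higher. The count of higher genes was 5 without animal 3 and 1 without animal 6, animal 10 or animal 11, with DESeq2, with RLE factors or with filterByExpr. Malat1, an RNA of nuclear speckles, was at 1510, 833, 937 and 1320 CPM in TRAP and at 3470, 3130, 5460 and 2960 CPM in total-RNA (−1.7 ± 0.21). Rmst and Miat fell as well, by 1.99 and 1.42 on the log2 scale. Snhg12 (0.78 ± 0.16) and Peg13 (0.27 ± 0.11) were called higher, but neither was called without the animal block (edgeR adjusted p = 0.0723 and 0.152), and Peg13 also lost its call without animal 6, animal 10 or animal 11, with DESeq2 (adjusted p = 0.0593), with RLE factors (0.08), with filterByExpr (0.0542) and without a filter (0.0891). The largest changes among all long noncoding genes with at least 5 CPM were rises of Gm8239, at 5.94, 8.3, 4.35 and 4.32 CPM against 0.578, 0.571, 0.267 and 0.36 CPM, A330094K24Rik and Gm33651, and falls of Gm21984 (−3.14 ± 0.4), which overlaps Asphd1 on the other strand, B930095G15Rik (−2.66 ± 0.14) and Snhg3 (−2.64 ± 0.29).

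Presynaptic and postsynaptic genes leaned in opposite directions. Of 20 presynaptic genes of vesicle fusion, 10 were lower in TRAP and 3 higher, with a median of −0.31. The vesicle SNARE Vamp2 (1.05 ± 0.11) and the complexins Cplx2 (0.99 ± 0.1) and Cplx1 (0.44 ± 0.11) rose. Stx1a, a SNARE of the plasma membrane (−1.52 ± 0.12), and the active zone scaffolds Pclo (−1.5 ± 0.14) and Rims1 (−1.23 ± 0.11) fell. Of 20 postsynaptic density genes, 12 were higher and 3 lower, with a median of 0.41. Dlgap3, a scaffold enriched in the striatum, was at 538, 419, 446 and 357 CPM in TRAP and at 163, 135, 102 and 92.8 CPM in total-RNA (1.86 ± 0.11). Agap2 (1.57 ± 0.1) and Shank3 (1.26 ± 0.13) rose as well, while Homer2 (−2.12 ± 0.17), Dlgap1 (−1.69 ± 0.11) and Shank1 (−0.98 ± 0.14) fell, so that members of the Shank and Dlgap families stood on both sides.

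Receptor families were likewise mixed. Of 22 glutamate receptor genes, 10 were higher and 9 lower. The metabotropic receptor gene Grm4 was at 144, 100, 76.7 and 121 CPM in TRAP against 34.4, 18.5, 14 and 22.1 CPM in total-RNA (2.35 ± 0.12), and Grm5 (1 ± 0.1) and the kainate subunit Grik5 (1.58 ± 0.15) rose as well. The NMDA subunits Grin3a (−3.19 ± 0.31) and Grin2c (−2.58 ± 0.32) and the kainate subunit Grik1 (−2.62 ± 0.25) fell. Among 12 GABA-A subunits, 3 were higher (25%) and 6 lower (50%), against 26.4% and 27.9% of all genes. Gabrd, of extrasynaptic receptors, was at 124, 110, 145 and 155 CPM in TRAP and at 43.2, 31.5, 38.2 and 42.3 CPM in total-RNA (1.78 ± 0.11), and Gabra4, its usual partner in the forebrain, rose by 0.95 ± 0.12. Gabra2 was called (0.53 ± 0.15) but was not without the animal block (edgeR adjusted p = 0.0579) or without animal 3 or animal 6. Gabrg1 (−2.44 ± 0.2), Gabra3 (−1.68 ± 0.11) and Gabra5 (−1.39 ± 0.15) fell.

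The PARP family, the target of ABT-888, had members on both sides. Parp1, the main enzyme that adds poly(ADP-ribose) after DNA damage, was at 114, 81.8, 18 and 85.5 CPM in TRAP and at 86.1, 78, 33.6 and 61.7 CPM in total-RNA. The groups overlapped and the ratio was above 1 in 3 animals and below 1 in animal 10, whose 2 libraries held the lowest levels, and the log2 fold change was 0.03 ± 0.2 (edgeR adjusted p = 0.902). Parp2, its partner in repair, was at 16.9, 19.8, 9.18 and 15.2 CPM in TRAP and at 11.8, 12.4, 6.84 and 10.9 CPM in total-RNA. Each animal had more in TRAP, again with the lowest levels in animal 10, and the log2 fold change of 0.52 ± 0.17 was called with the animal block (edgeR adjusted p = 0.0249) and not without it (0.149), nor without animal 3, animal 6 or animal 11. Of 16 genes of the PARP list, 3 were higher and 6 lower. Parp3 (1.58 ± 0.21) and Adprhl2, a hydrolase that removes ADP-ribose (1.27 ± 0.19), rose. The interferon-induced members Parp9 (−4.16 ± 0.62), Parp14 (−2.42 ± 0.62) and Parp12 (−2.28 ± 0.39) fell, and Parp9 stood at or under 0.212 CPM in every TRAP library.

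PARP enzymes consume NAD. Of 14 genes of NAD synthesis and of sirtuins, 2 were higher and 6 lower. The mitochondrial NAD synthase gene Nmnat3 was at 9.16, 7.85, 8.12 and 7.02 CPM in TRAP and at 2.11, 2.82, 2.24 and 2.28 CPM in total-RNA (1.77 ± 0.28), and Sirt7 rose by 0.93 ± 0.19. Cd38, an NAD hydrolase, was at 0.825, 0, 0.531 and 0.94 CPM against 2.99, 7.38, 8.21 and 11.1 CPM (−3.54 ± 0.54), Sirt2, a sirtuin of myelinating cells and neurons, fell by 0.56 on the log2 scale, and Nmrk1 (−1.27 ± 0.45) lost its call without animal 10 or animal 11. Leaving out animal 10 or animal 11 lowered the count of lower genes from 6 to 3.

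Signalling from the insulin receptor to Akt had 8 of 24 genes higher and 8 lower, near the shares over all genes. The receptor gene Insr was at 119, 148, 85.2 and 116 CPM in TRAP and at 111, 116, 98.7 and 111 CPM in total-RNA, with overlapping groups and a log2 fold change of 0.07 ± 0.11 (edgeR adjusted p = 0.634). Downstream, the transcription factor Foxo1 was at 194, 236, 279 and 175 CPM against 58.5, 53, 74.1 and 52.7 CPM (1.88 ± 0.11), and the kinase gene Gsk3a (1.12 ± 0.1) and the regulatory subunit Pik3r2 (0.6 ± 0.12) rose. The adaptor Irs1 (−1.65 ± 0.22) and the regulatory subunit Pik3r1 (−0.85 ± 0.1) fell, so that the regulatory subunits of the PI3 kinase went in opposite directions, and Akt1 (0.51 ± 0.12) rose. Irs4 was called lower (−2.4 ± 0.82) at 0, 0, 0.318 and 0.188 CPM in TRAP against 0.544, 0.952, 0.901 and 0.66 CPM, and lost its call without animal 3, animal 6 or animal 11. Without animal 11 the number of lower genes of this list was 5.

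Immediate early genes, which neurons switch on within minutes of activity, had 5 of 20 members higher (25%) and 9 lower (45%). Their median was −0.34, and the shares over all genes were 26.4% and 27.9%. The zinc finger factors Egr4, Egr3 and Egr1 rose by 1.49 ± 0.25, 1.45 ± 0.15 and 1.38 ± 0.12. Egr1 was at 487, 211, 172 and 187 CPM in TRAP and at 204, 91.8, 49.7 and 77.6 CPM in total-RNA, so that animal 3 held more in both fractions than the other animals. Fos and Arc were highest in animal 3 too, and Fos fell by 1.13 on the log2 scale (SE 0.22) with the animal block and was not called without it (edgeR adjusted p = 0.238), whereas Arc had a log2 fold change of −0.32 ± 0.16 that was not called. The growth factor Bdnf (−2.85 ± 0.27), the nuclear receptor Nr4a2 (−2.52 ± 0.18) and Ier2 (−2.02 ± 0.42) fell most. Of 14 genes induced by glucocorticoids, 4 were higher (28.6%) and 8 lower (57.1%). Klf9, a hormone-responsive transcription factor (0.92 ± 0.1), Fkbp5, which tempers the glucocorticoid receptor (0.72 ± 0.11), and the clock gene Per1 (0.59 ± 0.11) rose, and Pdk4 (−3.11 ± 0.24), Zbtb16 (−2.14 ± 0.17) and Tsc22d3 (−1.84 ± 0.14) fell. Per1 differed more between animals than between fractions, at 111, 82.1, 312 and 73.3 CPM in TRAP and 63.3, 59.5, 226 and 47.1 CPM in total-RNA, and was not called without the animal block (edgeR adjusted p = 0.464). Without that block 2 genes of this list were higher.

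Among 12973 nuclear protein-coding genes, shorter and GC-richer transcripts were more abundant in TRAP. Lengths and base content are those of the transcript with the longest coding sequence, correlations are across genes and describe these libraries, and every gene draws on the same 8 libraries. Spearman's rho with the log2 fold change was −0.211 for transcript length, −0.161 for coding length, −0.143 for the length of the 3′ UTR, −0.05 for that of the 5′ UTR and 0.22 for GC content. In the quartile of genes with the shortest transcripts, 37.7% were called higher and 18.7% lower, and in the quartile with the longest 19.6% were higher and 41.3% lower. For GC content the lowest quartile had 14.4% higher and 35% lower, and the highest 41.8% and 23.3%. The medians of the log2 fold change ran from 0.28 to −0.22 over length and from −0.19 to 0.29 over GC content. The part of library preparation in these gradients was not tested.

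**Figure D4:**
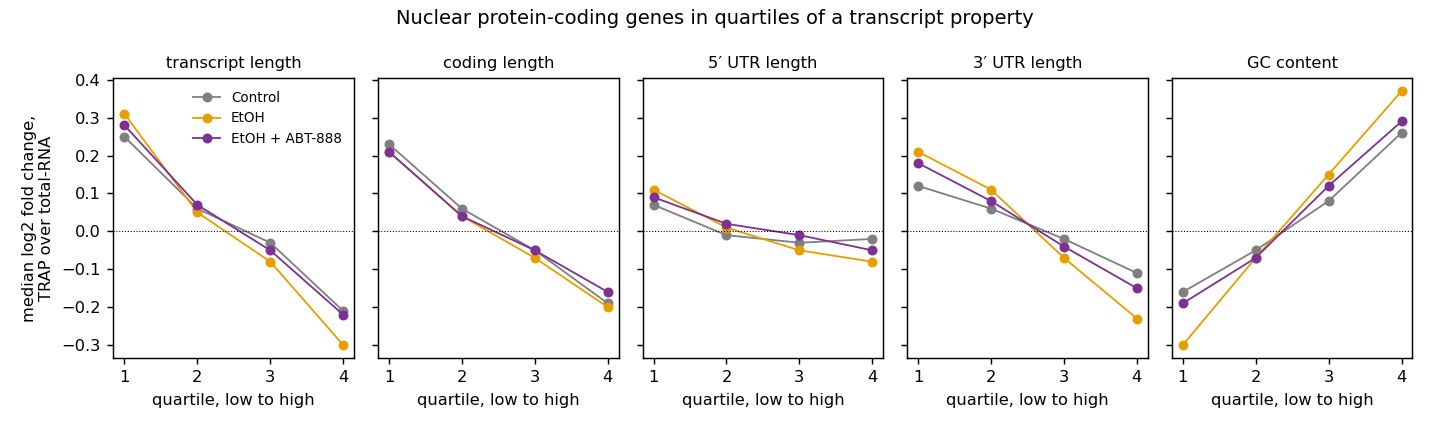
Median log2 fold change of TRAP over total-RNA (vertical axis) of nuclear protein-coding genes in quartiles of 5 transcript properties (horizontal axis, from low to high), with 1 line per treatment. In EtOH + ABT-888 the median falls from 0.28 to −0.22 with transcript length and climbs from −0.19 to 0.29 with GC content, and the Control and EtOH lines run beside it.

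The other treatments gave the background for these contrasts. The same test called 8788 genes (62.5%) in Control and 8276 genes (58.8%) in EtOH, and 59.9% and 50.7% without the animal block. In Control 30.9% were higher and 31.5% lower, and in EtOH 28.1% and 30.7%. Of the 7642 genes called in EtOH + ABT-888, 6859 (89.8%) were also called in Control, which makes 78% of the Control calls, and 6848 of them had the same direction. With EtOH, 6914 were shared (90.5% of the one and 83.5% of the other), all 6914 in the same direction. The 3 comparisons use different animals. The median SD of the log2 ratio between animals was 0.33 in EtOH + ABT-888, 0.2 in Control and 0.31 in EtOH.

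The main differences were also found in Control and EtOH. The striatal list had 16 of 16 members higher in each, with medians of 2.93 and 2.71, and the excitatory list had 14 of 20 lower in each, with medians of −1.05 and −1.59. All 13 mitochondrially encoded genes were lower in each, with medians of −4.72 and −4.51, and the nuclear genes of oxidative phosphorylation had medians of 0.6 and 0.73. Over the 7 non-neuronal lists, 90 and 88 of 94 genes were lower. Ribosomal protein genes had 8 higher and 17 lower in Control and 39 higher and 0 lower in EtOH, for medians of 0 and 0.42. The test of the difference itself gave an unadjusted p-value under 0.05 for 7 of the 78 genes against Control, near the 7.36% of all genes, and for 0 against EtOH, where 2.9% had one. All 7 had the higher ratio in EtOH + ABT-888, and the median difference of the list from Control was 0.34. Without a filter on low counts edgeR called Rpl31 (0.81, adjusted p = 0.00189), Rpl26 (0.75, 0.00351), Rpl38 (0.7, 0.00883) and Rps19 (0.72, 0.0176) higher against Control.

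**Figure D5:**
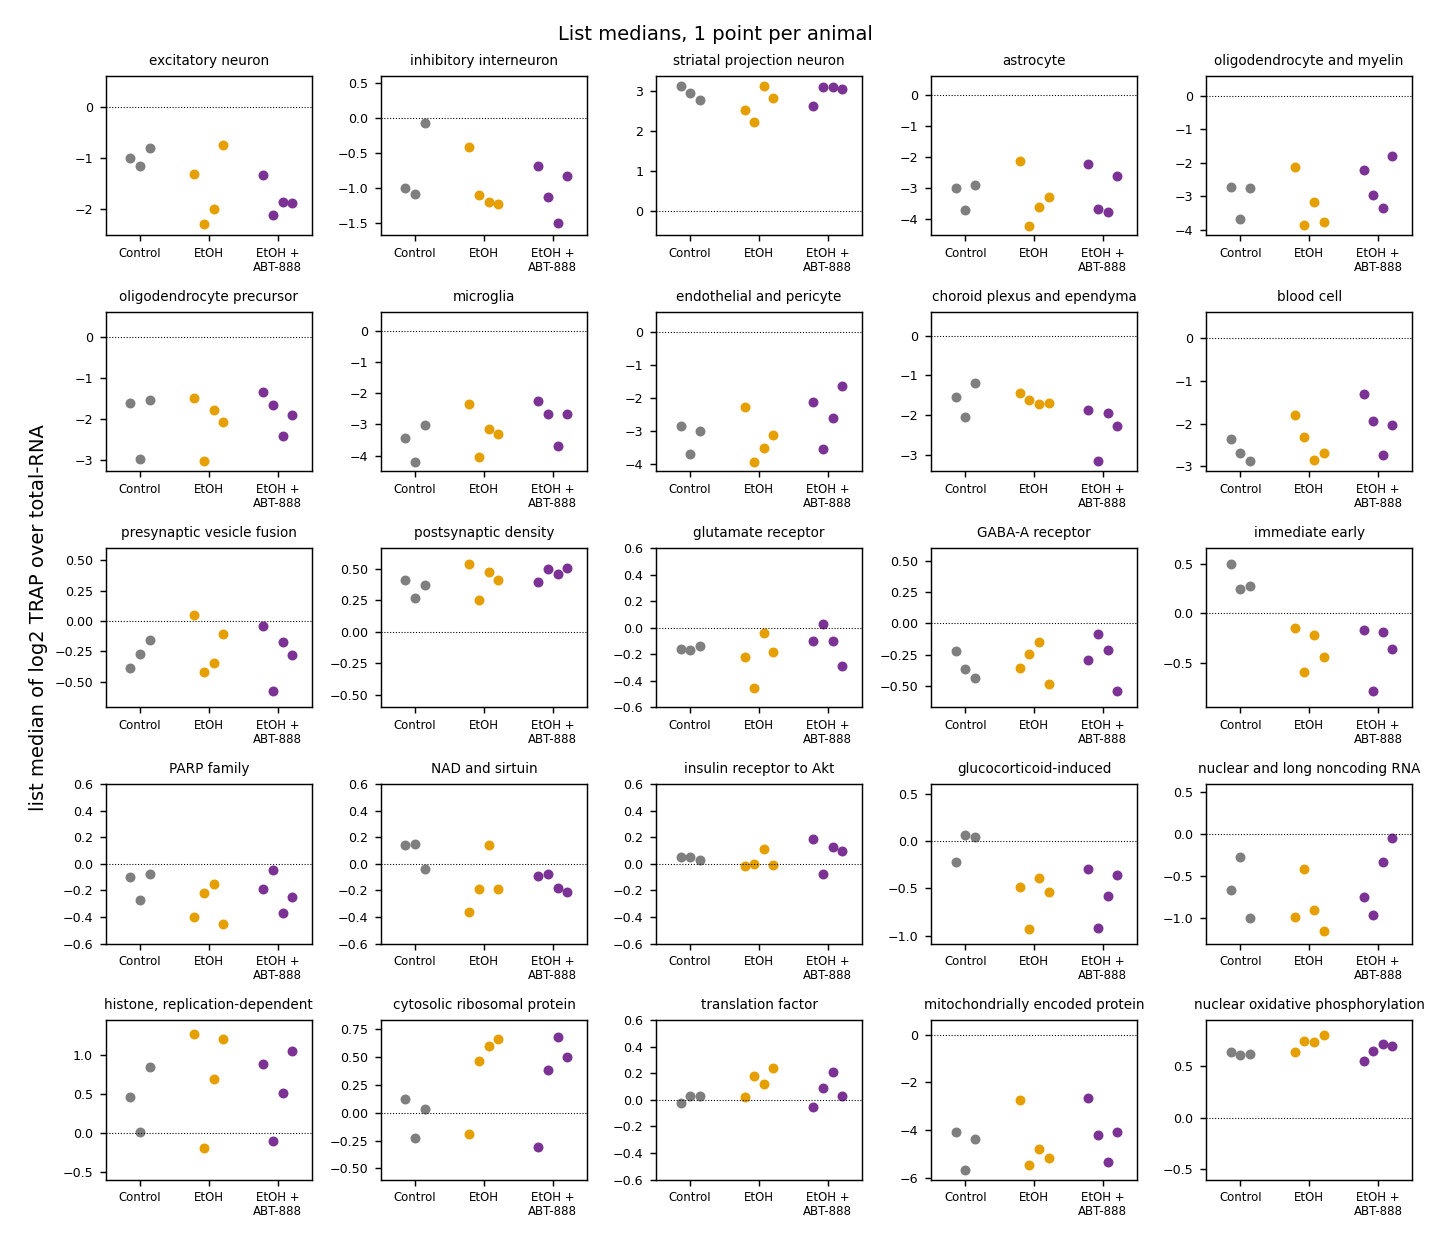
List medians of the log2 ratio of TRAP to total-RNA, with 1 point per animal for Control (3 animals), EtOH (4) and EtOH + ABT-888 (4), in the order of animal id from left to right; the vertical scale differs between panels and the dotted line marks 0. The striatal list lies above 2 and the mitochondrially encoded list below −2 in all 11 animals, while the immediate early list lies above 0 in every Control animal and below 0 in every animal of the other treatments.

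Whether the ratio of TRAP to total-RNA differed between treatments was tested over all 22 libraries, with the animal as a block and a TRAP term for each treatment. Against Control, 0 of 14072 genes (0%) were called after adjustment by edgeR's quasi-likelihood test with TMM factors. An unadjusted p-value under 0.05 was found for 1035 (7.36%). The ratio in EtOH + ABT-888 was higher in 481 of them (3.42%) and lower in 554 (3.94%). DESeq2 with the animal as a term called 61 genes, edgeR's likelihood ratio test 51 and the quasi-likelihood test with RLE factors 2. Without animal 3 or animal 6 the quasi-likelihood test called 5 and 3. Against EtOH, 0 genes passed, 408 (2.9%) had an unadjusted p-value under 0.05, of which 272 (1.93%) were higher and 136 (0.966%) lower, and DESeq2 called 0.

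The smallest adjusted p-values against Control, 0.0511 by edgeR, belonged to 2 genes, which were chosen after their values were seen. Camk1g, a calcium-dependent kinase, was at 57.5, 56.8, 75.8 and 68.7 CPM in TRAP and at 32, 28.6, 27.4 and 30.1 CPM in total-RNA, and its log2 fold change was 1.13 ± 0.13 in EtOH + ABT-888, 1.03 in EtOH and −0.05 in Control. Crym, which binds thyroid hormone, was at 96.8, 68.9, 107 and 91.8 CPM against 82.2, 82.8, 76.2 and 80.8 CPM, with a log2 fold change of 0.16 ± 0.13 in EtOH + ABT-888, 0.69 in EtOH and −1.33 in Control. Neither difference passed the threshold in this fit. Both were called by DESeq2 (adjusted p = 2.41e-06 for Camk1g and 8.34e-07 for Crym), by edgeR's likelihood ratio test (2.87e-06 and 2.85e-06), with RLE factors (0.0412 each), with filterByExpr (0.0464 each), without a filter and without animal 6 (0.0471 and 0.0251), and Camk1g also without animal 3 (0.0189).

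By list, the ratio in EtOH + ABT-888 against that in Control had an unadjusted p-value under 0.05 for 9 of 14 glucocorticoid-induced genes, 8 of 20 immediate early genes and 8 of 20 excitatory markers, against 7.36% of all genes. Of these, 1, 0 and 1 had the higher ratio in EtOH + ABT-888. Sgk1, a kinase induced by glucocorticoids, had a log2 fold change of −0.46 against 0.32 in Control (unadjusted p = 0.000569, edgeR adjusted p = 0.226), a difference that DESeq2 (adjusted p = 0.0129), edgeR's likelihood ratio test (0.0205) and edgeR without a filter (0.00102) called. Fkbp5 had 0.72 against 1.34 (unadjusted p = 0.00176). Nr4a1, an immediate early nuclear receptor, had 0.08 against 1.15 (unadjusted p = 0.00246, edgeR adjusted p = 0.398), and Slc17a7 had −2.09 against −1.12 (unadjusted p = 0.0254). Nr4a1 was called by DESeq2 (adjusted p = 0.049), and without a filter edgeR called Nr4a1 (adjusted p = 0.000153), Fkbp5 (0.0379) and Slc17a7 (1.59e-07). Against EtOH these lists had 0, 2 and 2 such genes, where the share over all genes was 2.9%. The 7 non-neuronal lists had median differences from Control above 0, of 0.77 for endothelial genes (4 of 18 at an unadjusted p-value under 0.05, all 4 higher), 0.61 for microglia (3 of 20, all 3 higher) and 0.6 for oligodendrocytes (0 of 17). The others were smaller, at 0.38 for blood cells, 0.3 for oligodendrocyte precursors, 0.1 for astrocytes (0 of 18) and 0.03 for choroid plexus. Against EtOH the medians were 0.7 for oligodendrocytes (3 of 17 at an unadjusted p-value under 0.05), 0.63 for endothelial genes (3 of 18) and 0.34 for microglia (2 of 20). They were 0.29 for oligodendrocyte precursors, 0.24 for astrocytes, 0.21 for blood cells and −0.09 for choroid plexus, with 0 such genes in each. The mitochondrially encoded list had a median difference of 0.52 from Control (0 of 13) and of 0.4 from EtOH (1 of 13). Without a filter edgeR called mt-Nd4 (0.74, adjusted p = 0.000109), mt-Cytb (0.67, 0.000127), mt-Nd5 (0.56, 0.00563) and mt-Nd2 (0.51, 0.027) higher against Control. In the same setting edgeR called the microglial gene Selplg higher (2.23, adjusted p = 3e-05), as DESeq2 and the likelihood ratio test did. Without a filter it also called higher the endothelial and pericyte genes Cdh5 (2.19, 0.00245), Slco1a4 (1.46, 0.00553) and Vtn (1.11, 0.0297). The same held for Mobp (0.7, 0.00467) and Olig2 (1.19, 0.0247) of the oligodendrocyte lineage. That setting called 71 genes higher and 106 lower against Control. Among the lower were Tagln (−2.54, edgeR adjusted p = 3.42e-05), Cd34 (−1.09, 0.000151) and Irf8 (−2.12, 0.0162), which are not in these lists. The excitatory list had a median difference of −0.53 from Control and of −0.03 from EtOH. The part of the non-neuronal RNA in the differences of the other lists was not tested. The 4 animals of EtOH + ABT-888 and the 3 of Control also differ by the ethanol itself, so the inhibitor and ethanol cannot be told apart in the comparison with Control.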

How the data were processed

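The authors extracted RNA from anti-EGFP pull-downs and from the input lysates of 11 mice, depleted rRNA and sequenced paired reads of 50 bases. Per the labels, STAR, featureCounts and edgeR were used with mm10; versions, strand setting and the treatment of multiply mapped reads are not given in the sources used here. The deposited values are raw counts per gene, for 39056 genes in 22 libraries, and 0 columns were left unused. Total counts ran from 6570957 to 32421392 in the 8 libraries compared.

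Genes with at least 500 counts over the 22 libraries and detected in at least 3 were kept (14072). Counts were scaled with TMM and tested with edgeR 4.0.16 (glmQLFit, glmQLFTest; R 4.3.3) with the animal id as a block, and p-values were adjusted by the Benjamini-Hochberg method. CPM used TMM-scaled library sizes. Values of log2 CPM and the log2 ratios of single animals used a prior count of 1, and fitted fold changes edgeR's default. The SE was derived from the F statistic. In fits with the block, p-values measure how the difference between TRAP and total-RNA varies between animals, and not how levels vary. The animal id pairs the libraries, since both came from 1 lysate; deviations from the group means correlated within animals with r of 0.458, 0.118, 0.622 and 0.229 (animals 3, 6, 10 and 11), and the best match was the animal's own library in 3 of 4, animal 6 being the exception. Differences between treatments used all 22 libraries. Gene models were GENCODE M21, which matched 38872 genes by identifier. The scripts were tested on simulated counts.

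The members and the gene lists were chosen with earlier results of these data known. Named genes were Camk2a, Rpl10a, S100b, Parp1 and Parp2, in each direction the 6 protein-coding genes with the smallest p-value and the 6 with the largest fold change among called, non-overlapping genes with at least 5 CPM in the higher group, 3 noncoding genes, and in each list up to 3 called genes per direction with the largest change and any member at odds with its list; other names were added after their values were seen. Some items that the rule names are not reported here. Alternatives were no block, exactTest, DESeq2 1.42.0, RLE factors, other filters, 1 fit over all libraries, a threshold of 0.01 and leaving out each animal.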

Additional observations from a re-analysis of the deposited data

Results flagged for a closer look

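Of 181 groups of 4 values examined, 14 held 1 animal that stood apart from the other 3, measured by its gap over the group's whole range, and chance alone gives about 1 in 20 such groups. The TRAP library of animal 6 stood apart in the share of Gm42418, with 2.17% of counts against 0.0956% to 0.0969%. The other 13 are log2 ratios of TRAP to total-RNA. Animal 3 stood below the others in the median of the striatal list (2.62 against 3.05 to 3.1), in Adora2a (3.34 against 3.91 to 4) and in Grm4 (2.07 against 2.44 to 2.45). It stood above them in Agap2 (1.65 against 1.54 to 1.55) and Bdnf (−2.02 against −3.24 to −3.05). Animal 6 stood above the others in Gm33651 (5.35 against 2.28 to 2.67) and Foxp2 (2.06 against 1.41 to 1.52), and below them in Grin2c (−4.67 against −2.36 to −2.03). Animal 10 stood below in Aspa (−7.11 against −2.65 to −1.97) and in Parp14 (−5.24 against −2.12 to −1.52), both with 0 CPM in its TRAP library, and above in Egr1 (1.79 against 1.2 to 1.27). Animal 11 stood above in Abcb1a (−1.69 against −3.47 to −3.25) and Sirt2 (−0.31 against −0.67 to −0.62).

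The list of immediate early genes had a median ratio below 0 in each of the 4 EtOH + ABT-888 animals, with −0.28 as the middle of the 4, and above 0 in each of the 3 Control animals (0.25 to 0.5). This difference between the treatments over the list was not tested.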

How the results depend on the processing

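The count of genes called between TRAP and total-RNA in EtOH + ABT-888 kept within 1.5 times 7642 in each alternative, from 5741 at a threshold of 0.01 to 8492 with 1 fit over all libraries, and leaving out an animal gave 6048 to 7305. Without the replicate block, that is, without pairing the libraries by animal, 5769 genes were called there, 8428 in Control and 7141 in EtOH. Among the 144 genes named by rule no direction was reversed, and 133 kept their side of the threshold throughout, Camk2a and Parp1 as not called; Parp2, Ttr, Gabra2, Nmrk1, Irs4, Per1, Snhg12, Peg13, Hist2h2be, Hist1h2bn and Cox6a2 lost their call in some. For genes named outside the rule, the call between TRAP and total-RNA was compared only with and without the replicate block. Fos and Sgk1 lost that call without the block (edgeR adjusted p = 0.238 and 0.12). The median of the NAD and sirtuin list, 0.01, lay between −0.14 and 0.12 with an animal left out and at −0.02 with DESeq2, RLE factors or no filter. Of the list counts, a threshold of 0.01 also lowered the higher histone genes from 20 to 12, the higher translation factors from 17 to 11, the lower genes of NAD from 6 to 3 and those of insulin signalling from 8 to 5, and the 1 lower nuclear gene of oxidative phosphorylation was not called there or without the replicate block. The difference from Control, with 0 calls in the main fit, gave 61 with DESeq2, 51 with edgeR's likelihood ratio test and 177 without a filter. It gave 2 with RLE factors, 2 with filterByExpr, 1 with the libraries of both treatments alone and 0 to 5 with an animal left out. The difference from EtOH gave 19 without a filter and 0 with an animal left out. Without the replicate block both gave 0, with 476 and 191 genes at an unadjusted p-value under 0.05. The cause was not tested. Values of genes near 0 CPM in TRAP, such as Itgam and Irs4, rest on few reads.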
